A study of Homo sapiens with 6 samples.

Results

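Ribosomal protein pseudogenes are annotated copies of the genes for the proteins of the cytosolic ribosome, and the peaks whose summit lies in one of them are described here. A pseudogene was taken when its RefSeq symbol is that of a ribosomal protein gene followed by P and a number, so that RPLP0P6 is a copy of RPLP0. The annotation of build GRCh38.p14 held 1989 such copies of 79 parent genes, which is 11.8% of its 16845 pseudogenes. Their summits were 170 of 30111 peaks in replicate 1, 425 of 160931 in replicate 2 and 447 of 65097 in replicate 3. These are 1042 of 256139 listed peaks in all. The rule used names and positions only, not the height of a peak.

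Most copies of ribosomal protein genes are processed pseudogenes. A spliced messenger RNA was copied back into DNA by the enzymes of mobile elements and inserted elsewhere in the genome, without introns and usually without a promoter of its own. Ribosomal protein messenger RNAs are short and very abundant, and their genes have left more such copies in the human genome than nearly any other family. Many copies lie within introns of unrelated genes and can be carried in the precursor RNA of that host. Copies resemble their parent messenger RNA closely, so a short read from the parent may align to a copy, and a read from a copy to the parent.

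The study overexpressed SNRPD2 in HEK293T cells, a human embryonic kidney line that carries the large T antigen of SV40, and sequenced RNA from a SmD2 immunoprecipitation (RIP-seq). SNRPD2 encodes SmD2, a protein of the ring of Sm proteins on the spliceosomal small nuclear RNAs, and the study asked whether it interacts with pseudouridine in RNA. One peak list from each of the 3 SNRPD2 overexpression samples (genotype SNRPD2OE) was analysed. The labels also name 3 Ctrl samples of the same cell line, which were not analysed here, so no value below compares overexpression with control. The labels give neither the vector nor whether the samples came from separate cultures, so a spread between replicates may be technical.

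Peaks carry a fold and a p-value, both the authors' own, from which the whole number of reads stacked at the summit and the caller's background were recovered. The lists differed in kind. A single read made up 0%, 71.4% and 55.0% of peaks in replicates 1, 2 and 3, and 75.7% of the peaks of replicate 3 were wider than 1000 bp, against none of those of replicate 2. For this reason the main shares below are also given for peaks with at least 10 reads at the summit. The highest stack was 78, 80 and 78 reads, in lists whose narrowest peaks were 39, 40 and 39 bp wide. How reads that match several places were placed is not given in the sources used here, and the sharing of reads between a copy, its parent and other copies was not tested. Each value belongs to a place in the genome and not to a proven transcript of it.

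A summit lay in 156 of the 1989 copies in replicate 1 (7.84%), in 334 in replicate 2 (16.8%) and in 384 in replicate 3 (19.3%), a mean of 14.6% ± 6.03 (SD, n = 3 lists). Over all 16845 pseudogenes the shares were 5.19%, 16.4% and 12.8%. The share of ribosomal copies was thus above that of all pseudogenes in replicates 1 and 3 and close to it in replicate 2. With at least 10 reads, 86, 87 and 174 copies held a summit, which is 4.32%, 4.37% and 8.75%. Over all pseudogenes these shares were 1.23%, 1.36% and 2.23%. Ribosomal copies made up 41.3%, 38.0% and 46.4% of all pseudogenes with a summit of at least 10 reads, against 11.8% of the pseudogenes annotated.

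The member peaks were taller than the rest of their lists. They had a median of 10, 2 and 10 reads, against 4, 1 and 1 read over all peaks of replicates 1, 2 and 3. At least 10 reads stood at 53.5%, 26.1% and 50.1% of member peaks, against 21.6%, 5.22% and 8.37% of all peaks. A deposited q-value under 0.05 was reached by 40, 72 and 148 member peaks, which is 23.5%, 16.9% and 33.1%, against 4.81%, 3.62% and 1.86% of all peaks. In replicate 3 the ribosomal copies held 12.3% of the peaks that reached it, against 1.24% in replicate 2 and 2.76% in replicate 1.

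The caller's background at member peaks was also higher than elsewhere. Its median was 1.48, 0.0975 and 0.0922 reads at member peaks and 0.195, 0.0397 and 0.0316 reads over all peaks. A background of at least 1 read stood under 50.6%, 27.5% and 17.2% of member peaks, against 29.4%, 8.43% and 4.13% of all peaks. It reached 40.04, 44.2 and 23.7 reads. The folds had a median of 3.04, 1.94 and 3.01 at member peaks, against 2.74, 1.94 and 1.24 over all peaks. The median fold was thus the same in replicate 2. The highest fold of a member peak was 9.34, 7.88 and 14.4.

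Wide peaks occurred in replicate 3 alone among the members. There 219 of its 447 member peaks (49.0%) were wider than 1000 bp, a smaller part than the 75.7% of the whole list. With peaks of at most 1000 bp only, 169 copies (8.50%) held a summit in replicate 3, against 2.81% of all pseudogenes. Of the wide member peaks 32 (14.6%) had at least 10 reads at the summit, against 0.388% of all wide peaks of that list.

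Other gene-copy pseudogenes, meaning 6190 pseudogenes named for some other protein-coding parent plus P and a number, were the closest comparison. A summit lay in 7.84%, 16.8% and 19.3% of ribosomal copies and in 6.91%, 22.7% and 17.3% of other gene copies in replicates 1, 2 and 3. The difference averaged -0.986 percentage points ± 4.33 (SD, n = 3) and changed sign between lists (exact sign-flip permutation test, two-sided, p = 1). With 3 lists this test cannot give a p below 0.25. The other gene copies are longer, with a median of 1142 bp, against 539 bp for the ribosomal copies, and a summit can fall in a longer locus more easily.

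Among loci of at most 2000 bp, a limit chosen after the data were seen, a summit lay in 7.78%, 16.5% and 18.9% of ribosomal copies and in 4.003%, 15.6% and 12.3% of other gene copies. The difference was then above 0 in 3 of 3 lists, at 3.76 percentage points ± 2.90 (exact p = 0.25, the smallest possible). With at least 10 reads and loci of any length, a summit lay in 4.32%, 4.37% and 8.75% of ribosomal copies, against 1.18%, 1.31% and 2.10% of other gene copies. That difference averaged 4.29 points ± 2.05, again in the same direction in 3 of 3 lists (exact p = 0.25). Counted by length in loci of at most 2000 bp, peaks of at least 10 reads fell at 78.3, 95.5 and 190.2 per megabase of ribosomal copies and at 12.1, 16.2 and 32.6 per megabase of other gene copies. With loci of any length the figures were 58.0, 70.7 and 143 for ribosomal copies and 3.96, 4.45 and 7.79 for other gene copies.

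**Figure D1:**
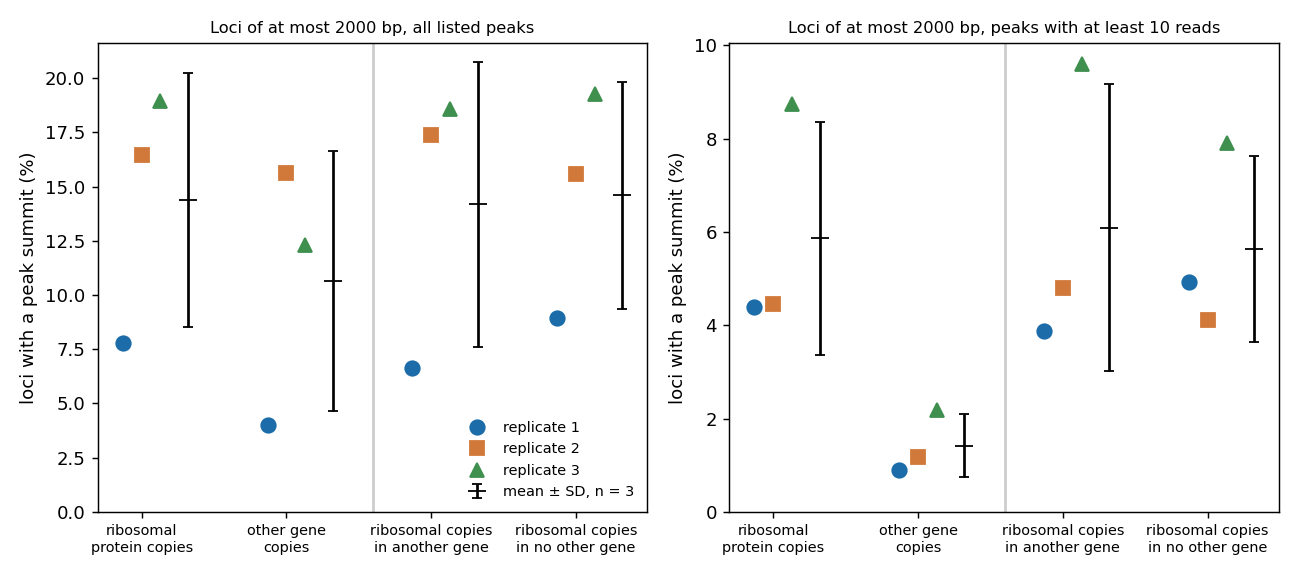
Percent of loci of at most 2000 bp that held a peak summit, for all listed peaks on the left and for peaks with at least 10 reads on the right. Symbols are the 3 replicates and the black bar is their mean ± SD. Ribosomal protein copies stood above other gene copies in each list in both panels, while copies in another gene and copies in no other gene overlapped.

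Longer copies held a summit more often within the ribosomal family too. It averaged 2.44% of copies up to 300 bp, 10.7% above 300 and up to 500 bp, 14.4% above 500 and up to 700 bp, 20.1% above 700 and up to 1000 bp and 26.3% above 1000 and up to 2000 bp. Other gene copies had 2.18%, 3.70%, 6.91%, 10.1% and 16.1% in the same classes. For peaks of at least 10 reads the ribosomal copies averaged 0.813%, 3.58%, 5.52%, 9.58% and 12.1%, against 0.115%, 0.268%, 0.723%, 1.61% and 2.19% of other gene copies. In the classes above 300 bp and up to 2000 bp the mean share was higher in ribosomal copies, in both counts. The 35 copies over 2000 bp are set apart, since only 1.16 of the 1.57 megabases of copies lie in copies up to that length. Among those 35 a summit lay in 11.4%, 34.3% and 40%, against 15.9%, 44.6% and 32.5% of other gene copies over 2000 bp, so the order of the means turned, with 28.6% and 31.0%. A summit of at least 10 reads lay in 0%, 0% and 8.57% of the 35, against 2.04%, 1.71% and 1.84%.

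**Figure D2:**
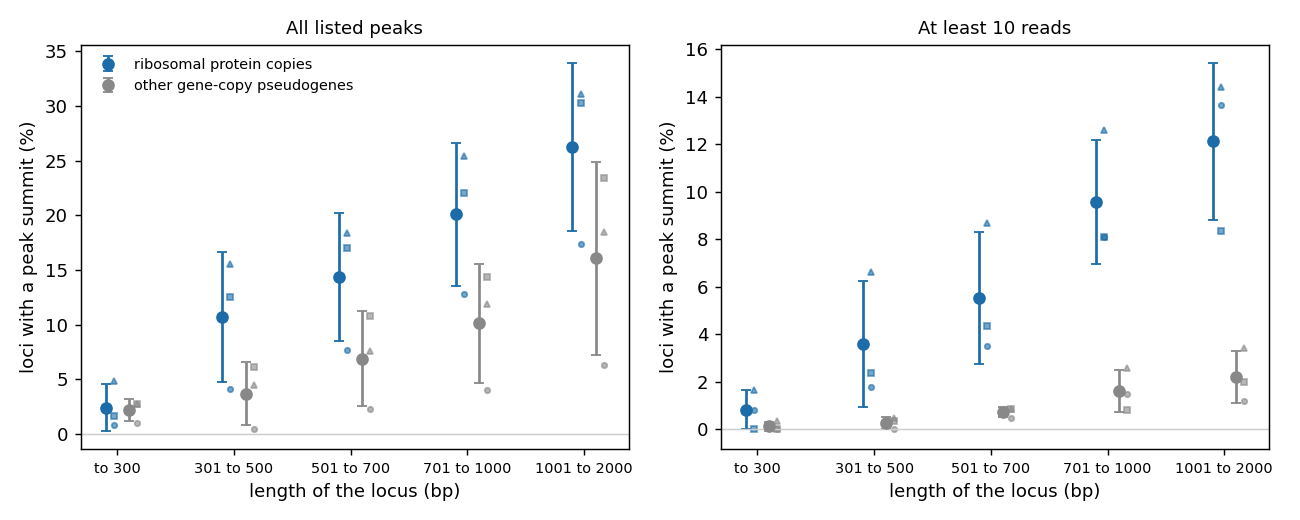
Percent of loci with a peak summit by length class in bp, for ribosomal protein copies (blue) and other gene-copy pseudogenes (grey), with all listed peaks on the left and peaks of at least 10 reads on the right. Large points with bars are the mean ± SD of 3 lists, and the small circle, square and triangle are replicates 1, 2 and 3. In both families the mean share is higher at each longer class, with 2.44% in the shortest and 26.3% in the longest class for ribosomal copies in the left panel.

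By subunit, small-subunit copies had the higher share in 3 of 3 lists, by little in replicate 2, a difference that was not tested. Copies of small-subunit genes (694 copies of 32 parents) held a summit in 9.65%, 17.0% and 21.2%, and copies of large-subunit genes (1273 copies of 46 parents) in 6.91%, 16.4% and 18.2%. With at least 10 reads the shares were 5.62%, 5.33% and 11.1% of small-subunit copies and 3.61%, 3.85% and 7.46% of large-subunit copies. The remaining 22 copies belong to RPL7L1, a paralog of RPL7, with 4.55%, 31.8% and 22.7%. The copies of RPSA and RPS2, with a median of 1023 and 928 bp, made up 74 and 55 of the small-subunit copies. Of the 67, 118 and 147 small-subunit copies with a summit, RPSA held 14, 19 and 20 and RPS2 held 11, 18 and 13. With at least 10 reads RPSA held 12, 7 and 12 and RPS2 held 8, 9 and 8 of 39, 37 and 77. The part of these parents in the subunit difference was not tested. Copies that RefSeq calls transcribed pseudogenes were few, 31 in all, and held a summit in 22.6%, 45.2% and 41.9%, against 7.61%, 16.3% and 18.9% of the other 1958. For stacks of at least 10 reads they were 9.68%, 6.45% and 19.4%, against 4.24%, 4.34% and 8.58%. The transcribed copies are longer, with a median of 1041 bp, against 536 bp, and that part of the difference was not tested.

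By parent, 75 of the 79 genes had at least 1 copy with a summit in some list. The exceptions were RPS13 with 8 copies, RPL38 with 6, RPL11 with 5 and RPS4Y1 with 1. Among the 77 parents of at least 5 copies the median share of copies with a summit in any list was 33.3%. Parents with longer copies tended to have a higher share (Spearman's rho 0.417 over 77 parents), and parents with more copies a slightly lower one (rho -0.237). Both are descriptions only, since parents measured in the same lists are not replicates.

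The 5 parents with the most copies held 450 copies, 22.6% of all. RPL21, a large-subunit protein and the parent with the most copies, had 137, of which 4, 16 and 12 held a summit in replicates 1, 2 and 3 (19.0% in any list). RPL23A, which sits at the exit of the peptide tunnel, had 95 copies, with 5, 18 and 18 holding a summit (28.4% in any list). RPL7A had 80 copies, with 7, 15 and 17 (33.8%). RPSA, a small-subunit protein also known as the laminin receptor, had 74 copies, with 14, 19 and 20 (44.6%). RPL31 had 64 copies, with 0, 3 and 5 (10.9%). So the RPSA copies, with a median length of 1023 bp, held summits most often of these 5, and the RPL31 copies, with a median of 367.5 bp, least often. With at least 10 reads the shares were 23.0% for RPSA, 10% for RPL7A, 5.26% for RPL23A, 2.92% for RPL21 and 1.56% for RPL31.

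The highest shares were found in smaller groups. Copies of RPS3, a protein of the small subunit's messenger RNA entry site, held a summit in 5 of 7 (71.4%). RPLP0, the base of the stalk on the large subunit, had 8 of 12 (66.7%). RPS15 had 6 of 9 (66.7%), RPL35 had 6 of 10 (60.0%) and RPL29 had 20 of 34 (58.8%). Stacks of at least 10 reads stood in 2 copies for RPS3, 5 for RPLP0, 4 for RPS15, 2 for RPL35 and 5 for RPL29. At the other end, 1 of 36 copies of RPL35A held a summit (2.78%), the lowest share among the 58 parents with at least 10 copies, which had a median of 32.3%.

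**Figure D3:**
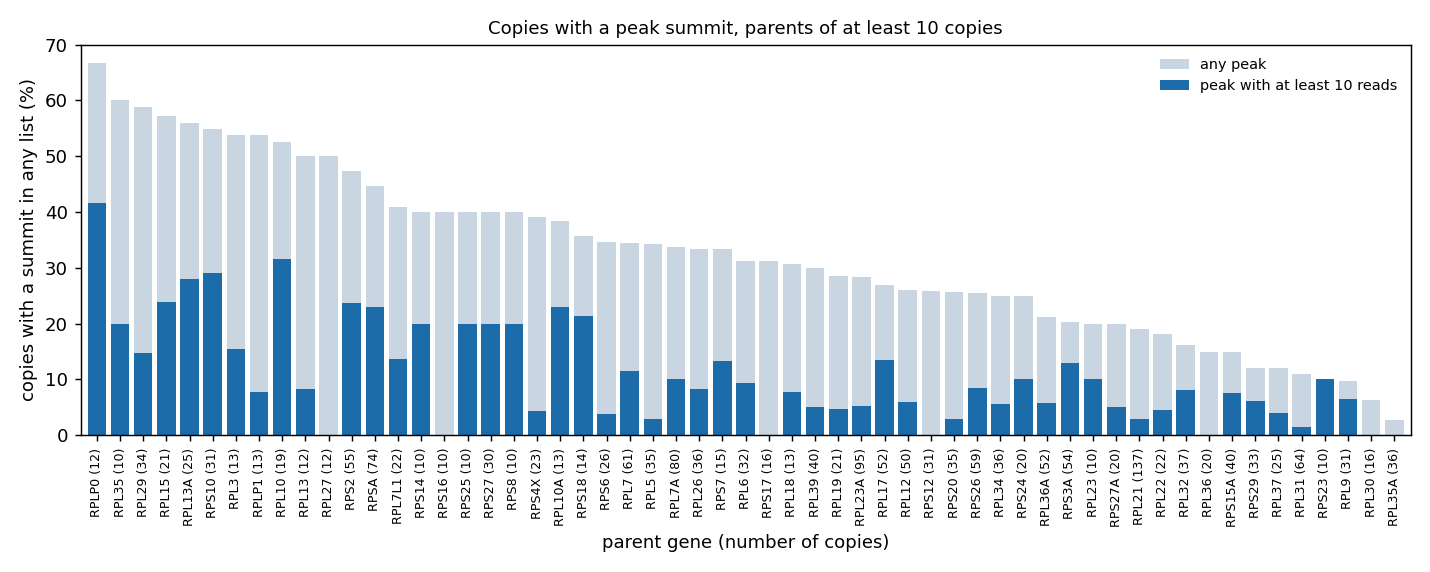
Percent of the copies of each parent gene with a summit in any of the 3 lists, for 57 of the 58 parents with at least 10 copies (number of copies in brackets, 1 parent not shown). The pale bar counts any peak and the dark bar in front of it counts peaks with at least 10 reads. Shares ran from 66.7% for RPLP0 to 2.78% for RPL35A.

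The parent genes themselves were listed unevenly. A summit lay within the span of 21, 63 and 17 of the 79 parents in replicates 1, 2 and 3. In 43, 13 and 56 parents a copy held a summit and the parent did not. Where both did, the parent's highest stack exceeded that of every copy in 14 of 20 parents in replicate 1, 54 of 59 in replicate 2 and 9 of 15 in replicate 3. RPLP0 differed between the lists. Its copies reached 76, 75 and 75 reads, and the parent reached 57 and 79 reads in replicates 1 and 2 and had no listed peak in replicate 3. RPSA had no listed peak in replicates 1 and 3 and up to 63 reads in replicate 2, while its copies reached 28, 30 and 39 reads. A missing peak does not show that reads were missing, since a list holds only stacks that passed the caller's threshold over the background.

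The position of a copy in another gene was examined next. Of the 1989 copies, 985 lay wholly within the span of another gene, 763 of them within a protein-coding gene, and 1004 lay in no other gene or were only partly overlapped by one. A summit lay in 6.70%, 17.6% and 18.7% of copies inside another gene and in 8.96%, 16.0% and 19.9% of copies in no other gene. The difference averaged -0.659 percentage points ± 1.96 (SD, n = 3) and its sign differed between lists (exact sign-flip permutation test, two-sided, p = 0.75). With at least 10 reads it was 3.86%, 4.77% and 9.54% inside, against 4.78%, 3.98% and 7.97% in no other gene, with an average of 0.480 points ± 1.28 (exact p = 0.75). In neither setting was the difference larger than the spread between lists. Among other gene copies the difference averaged -1.59 points ± 2.27 (exact p = 0.5).

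Peaks in copies inside another gene were somewhat taller than those outside. Stacks of at least 10 reads made up 57.7%, 30.8% and 55.1% of the 71, 208 and 216 peaks inside, against 50.5%, 21.7% and 45.5% of the 99, 217 and 231 peaks in no other gene. The caller's background was higher inside as well, with medians of 1.67, 0.108 and 0.154 reads, against 0.651, 0.0939 and 0.0316 reads. Its part in the taller stacks was not tested.

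Within a protein-coding host, some copies held the host's strongest peak. No such count was made for other peaks of these hosts or for other gene copies, so the shares have no background beside them. Of the copies inside such a host with a summit, 32 of 51 in replicate 1 (62.7%), 42 of 139 in replicate 2 (30.2%) and 100 of 131 in replicate 3 (76.3%) held the peak with the highest −log10 p of the whole host. The peak was the host's only one in 17 of the 32, 1 of the 42 and 10 of the 100, and a tie for the highest was counted. With at least 10 reads the counts were 18 of 27, 20 of 37 and 61 of 67. Hosts had a median of 3, 16 and 6 peaks in replicates 1, 2 and 3. The annotation used gives whole gene spans, so exon, intron and strand of copy and host were not used here.

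Summits in 67 copies (3.37%) were found in all 3 lists, against 2.62% of all pseudogenes and 3.68% of other gene copies. With peaks of at most 1000 bp they were 55 (2.77%), against 1.14% of all pseudogenes and 1.26% of other gene copies. With at least 10 reads they were 45 (2.26%), against 0.6% of all pseudogenes. In any list 602 copies (30.3%) held a summit, 397 of them in 1 list and 138 in 2, against 23.1% of all pseudogenes and 30.9% of other gene copies. Neither share was thus higher than in other gene copies when all listed peaks and loci of any length were counted. Among loci of at most 2000 bp the order turned. There 3.22% of ribosomal copies and 1.43% of other gene copies held a summit in all 3 lists, and 30.0% and 23.5% in any list. For stacks of at least 10 reads the shares in all 3 lists were 2.26% of ribosomal copies and 0.485% of other gene copies. The 67 copies came from 45 parents, with 32 inside another gene and 35 in no other gene. In 46 of them the summits of the 3 lists lay within 100 bp of each other, and in 30 within 10 bp. Of the 46, 7 had a q under 0.05 in all 3 lists.

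Summits of 2 lists often lay within 10 bp of each other. Among copies of at most 2000 bp with a summit in both of 2 lists, the nearest summits lay within 10 bp in 46 of 82 copies for replicates 1 and 2 (56.1%), in 72 of 99 for replicates 1 and 3 (72.7%) and in 90 of 140 for replicates 2 and 3 (64.3%). The median distance was 7, 3 and 5 bp. Other gene copies had 39.4%, 46.1% and 41.3% within 10 bp, so the positions recurred more closely in the ribosomal copies in each of the 3 pairings. These pairings share lists and the difference was not tested. Within the limit of 2000 bp the ribosomal copies are also shorter, with a median of 536 bp, against 866 bp. The part of locus length and of stack height in the closer positions was not tested.

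Stack heights at a shared site were nearly equal between lists. Where both lists had at least 10 reads within 100 bp, 43, 63 and 66 copies, the median difference was 7.41%, 8% and 9.76% of the mean, and 42, 60 and 66 of them agreed within 1.5-fold. The squared difference over the sum of both counts averaged 0.313, 0.318 and 0.308, where independent counts of that size would average 1. Other gene copies of any length, 32, 37 and 52 by the same rule, had 0.460, 0.434 and 0.319, with median differences of 14.8%, 13.3% and 11.5%. Values under 1 were thus not particular to the ribosomal copies. The 36 ribosomal copies with at least 10 reads within 100 bp in all 3 lists had a median coefficient of variation of 7.86%, from 0% to 23.3%. Stack heights thus varied less than plain counting error, and the heights stop at 78 to 80 reads in every list. Whether the closeness comes from that ceiling was not tested. The caller's background at these 36 sites was less alike, with medians of 8.95, 9.93 and 0.922 reads.

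**Figure D4:**
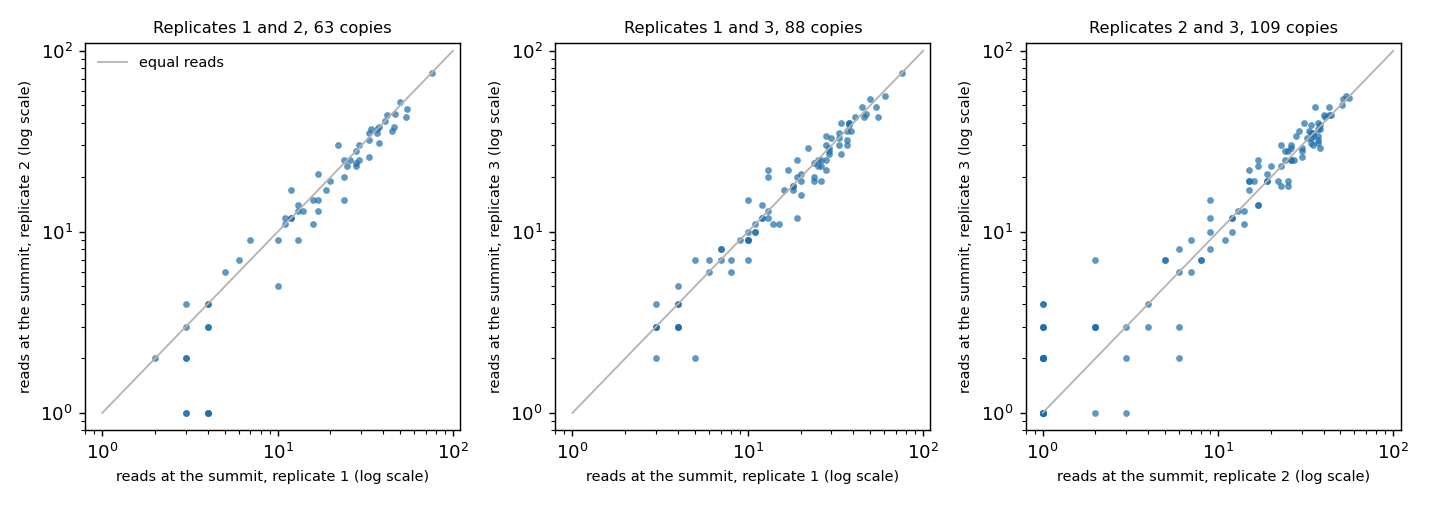
Reads at the summit in 2 lists for copies of at most 2000 bp whose nearest summits lie within 100 bp (63, 88 and 109 copies), on log scales, 1 point per copy and the line marking equal reads. Points with at least 10 reads in both lists hug the line, with a median difference of 7.41% to 9.76%, and low stacks scatter more.

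RPLP0P6 held the tallest stack of all copies. It is a 1101 bp copy of RPLP0 on chromosome 2, from 38481775 to 38482875 (GRCh38), within the long noncoding RNA gene LINC02613. Its summit stood at base 585 from the low-coordinate end in every list, with 76, 75 and 75 reads in replicates 1, 2 and 3. The background there was 31.7, 29.8 and 7.88 reads and the deposited folds were 2.33, 2.47 and 6.68, so the equal stacks carried unequal folds. A read weighs 0.599, 1 and 0.254 in the fold of replicates 1, 2 and 3, so folds are set beside each other here and not compared between lists. A further summit near its low-coordinate end, at base 94, 73 and 73, held 58, 56 and 55 reads.

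RPL10AP6 (713 bp, chromosome 3, 61742425 to 61743137) is a copy of RPL10A within PTPRG, a receptor tyrosine phosphatase gene. Its summit at base 453, 447 and 452 held 55, 48 and 43 reads, with folds of 3.40, 4.48 and 11.05. It was the strongest of the 3, 84 and 33 peaks of PTPRG in replicates 1, 2 and 3. The copy thus outranked every other peak of a gene with many peaks.

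RPS18P5 (545 bp, within PCNP, a nuclear protein gene) held 54, 43 and 49 reads at base 68, 67 and 69. RPS2P46 (943 bp, within LOC105371574) held 61, 54 and 56 reads, but over a background of 40.04, 34.3 and 11.7 reads, so its folds were 1.503, 1.56 and 3.84. Both copies show tall stacks of similar height in each list over backgrounds that differ between the lists. The −log10 q of these stacks was 0.107, 1.76 and 11.8 for RPS18P5 and 0, 0 and 1.34 for RPS2P46, where 1.3 stands for a q of 0.05. By −log10 p the strongest peak of RPS2P46 was another one in replicates 1 and 2. It held 46 reads at base 580 and 38 reads at base 581, with folds of 2.60 and 2.82.

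Other copies inside protein-coding genes had fewer reads at the site that the lists share. RPS3P4, within CAGE1, a cancer antigen gene, held 28, 23 and 30 reads and RPL29P4, within SLC35F1, held 38, 31 and 40 reads. RPL7AP62, within SEMA6D, a semaphorin gene, held 24, 15 and 19 reads at base 616, 615 and 618, and RPL17P6, within PIGK, a subunit of the enzyme that attaches GPI anchors, held 25, 23 and 23 reads. RPS25P6, within ARL14EPL, held 12, 17 and 14 reads. All 5 had summits within 7 bp of each other across the lists. RPL29P4 also held a taller stack in replicates 2 and 3, with 54 reads at base 246 and 66 reads at base 219. RPL17P6 held a taller stack in replicate 3, with 36 reads at base 383, against 23 reads at the shared base 202. RPS28P4, within ARMC9, was different, since its summits at base 194, 299 and 168 did not coincide.

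Copies in no other gene gave similar values. RPS10P15 (531 bp, chromosome 7, 128570195 to 128570725) held 37, 35 and 30 reads at base 252, 257 and 252, with folds of 4.64, 3.94 and 7.45. RPL10P16, a copy of RPL10 on chromosome 19, held 45, 36 and 49 reads at base 459, 460 and 460. RPL8P4 held 13, 9 and 12 reads at base 681, 682 and 685. The 3 RPSA copies of this group split. RPSAP45 held 28, 24 and 25 reads at base 674, 673 and 674, and RPSAP4 held 26, 25 and 19 reads at base 934, 932 and 945. In RPSAP29 replicates 1 and 3 had 10 and 9 reads at base 119 and 122, while the summit of replicate 2, at base 826, had 2 reads. Not every stack named here reached a q under 0.05. The −log10 q was 0.178 for RPL10P16 and 0.494 for RPL8P4 in replicate 1, and 0 for RPSAP4 in replicate 2.

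RPL5P5 and RPL23AP82 also had narrow peaks in all 3 lists. RPL5P5 (1026 bp) lies within SWT1 and held 9 reads at base 89 in replicates 1 and 3. The background there was 0.0373 and 0.0615 reads, which gave the small stack a fold of 6.26 in replicate 1. Replicate 2 had no summit at that base, with 4 reads at base 923, where replicate 1 had 3 reads at base 918, and 1 read at base 618. RPL23AP82 is annotated over 42552 bp on chromosome 22, far longer than a processed copy, and held 4, 11 and 4 summits of at most 10 reads spread over that span.

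**Figure D5:**
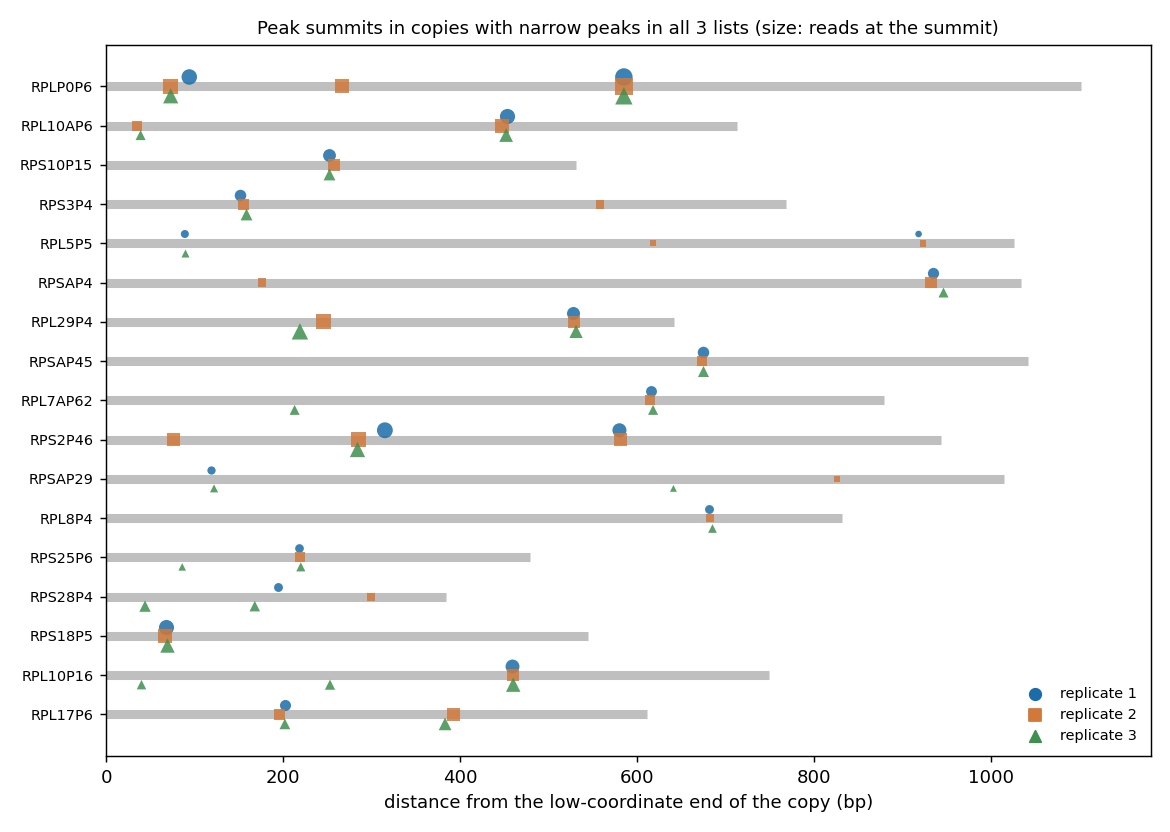
Position of every summit, in bp from the low-coordinate end, in 17 copies with narrow peaks in all 3 lists. Grey bars are the copies to scale, symbols are replicates, and symbol size grows with the reads at the summit. RPL23AP82, 42552 bp long, is left out. Symbols of the 3 replicates line up in most copies, as at base 585 of RPLP0P6. The closest summits of the 3 lists spread over 131 bp in RPS28P4, 529 bp in RPL5P5 and 707 bp in RPSAP29.

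Among peaks of at most 1000 bp, the strongest member peaks of a list were in part absent from the others. In replicate 1 RPL12P4, in no other gene on chromosome 20, led with 17 reads over a background of 0.455 (fold 8.79), followed by RPS4XP3 with 20 reads over 0.651 (fold 9.34). Neither copy held a summit in the other lists. RPSAP8, on chromosome X, held 18 reads at base 135 in replicate 1 and 18 reads at base 134 in replicate 3.

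In replicate 2 RPS27P3 held the strongest member peak. It lies within TSPAN9, a tetraspanin gene on chromosome 12, from 3211606 to 3211951, and its stack of 38 reads with a fold of 7.07 ranked 9 in the whole list. Replicate 3 had 29 reads at its base 268, against base 269 in replicate 2, with a fold of 4.18. RPS2P12, within the lipid transporter gene MFSD2A, held 25 reads in replicate 2 and 24 reads 3 bp away in replicate 1, with folds of 7.01 and 2.56. RPL35P2, within SMIM29-AS1, held 25 reads in replicate 2 alone.

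In replicate 3 RPS10P7 held the strongest member peak of at most 1000 bp, after the wider peak of RPL32P3. It lies within CSRP1-AS1 on chromosome 1, from 201519904 to 201520602, and its 55 reads over a background of 0.154 gave a fold of 14.4, the highest of any member peak. RPL32P16, within MTHFD1L, a mitochondrial folate enzyme gene, held 46 reads with a fold of 11.8. Neither had a listed peak in replicates 1 and 2. RPL29P26 had 36 reads and RPL36AP26 also had 36 reads in replicate 3, against 29 and 33 reads in replicate 2. The backgrounds of these copies were 0.154 reads in replicate 3 and 11.7 and 7.22 reads in replicate 2, and the folds 9.75 for both in replicate 3, against 2.36 and 4.13.

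Among the 100 peaks with the highest −log10 p, ribosomal copies held 5 in replicate 1, 4 in replicate 2 and 28 in replicate 3, of which 11 were wider than 1000 bp. Other gene copies held 8, 6 and 17 of these peaks, and all pseudogenes held 21, 18 and 54. Over the whole lists ribosomal copies held 0.565%, 0.264% and 0.687% of peaks. With peaks of at most 1000 bp the ribosomal copies held 5, 4 and 26, and all pseudogenes 21, 18 and 40. Replicate 3 thus had the highest counts for ribosomal copies, for other gene copies and for all pseudogenes alike. In 2 member peaks, picked out after their values were seen, the summit also lay in a small RNA gene within the copy. RPS27AP5 in replicate 1 has MIR4426 at the summit, and RPL32P3 in replicate 3 has SNORA7B, a snoRNA gene, with 49 reads and rank 5 in the list.

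Along the copies of at most 2000 bp, which held 163, 378 and 430 of the summits, no part of the copy gathered most of them. Cut into 5 equal parts from the low-coordinate end, the shares of summits were 17.8%, 22.7%, 22.7%, 20.2% and 16.6% in replicate 1, with 15.3%, 20.4%, 20.4%, 26.5% and 17.5% in replicate 2 and 19.3%, 27.4%, 18.8%, 18.4% and 16.0% in replicate 3. The strand of a copy is not in the annotation used, so these parts do not run from the 5′ to the 3′ end of the former messenger RNA. The median distance to the nearer end was 26.4%, 27.4% and 25.2% of the copy.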

How the data were processed

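RNA from SmD2 RIP-seq of 3 SNRPD2OE samples was analysed as peak lists. MACS2 2.2.9.1, STAR 2.7.10b and cutadapt 4.2 are named with GRCh38 per the submitters' processing notes. What served as background, and the caller's settings, is not given in the sources used here. Deposited columns hold peak positions, a score, a fold (ratio), −log10 p-values and −log10 q-values per peak, per the file format. Peaks were listed per sample.

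Reads at a summit were recovered as the whole number that gave the deposited p within 0.002 (−log10 scale) when 1 read is worth 0.599, 1 and 0.254 in replicates 1, 2 and 3. All peaks but 1, in replicate 3, were solved. Library depth is unknown, so precision rests on the reads of a peak and the spread of 3 lists. The lists start at peak numbers that leave 828, 5158 and 1883 earlier numbers not analysed here, and 24 mitochondrial peaks of replicate 3 were left out. Steps were tested on simulated data.

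Summits were assigned by position to RefSeq GRCh38.p14 gene spans. Of 1994 pseudogene symbols starting RPL or RPS, 5 lack the number form. "Inside another gene" means the whole copy within another gene of any type. Shares were compared by exact sign-flip permutation over 3 lists (python 3.11.15, pandas 2.3.3, scipy 1.17.1). Named copies were at most 20 with peaks of at most 1000 bp in all 3 lists, by mean rank, the 5 with the highest −log10 p per list among such peaks, and the 5 parents with the most copies or the highest share. A few named items are left out of the text. The members and lists were chosen with earlier results of these data known.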

Additional observations from a re-analysis of the deposited data

How the results depend on the processing

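The share of ribosomal copies with a summit, 14.6% on average, was 4.01% with a −log10 q of at least 1.3, 5.82% with at least 10 reads and 28.6% with any overlap of 1 bp, and 12.3% to 18.0% when each replicate was left out in turn. The difference from other gene copies, -0.986 points, had the opposite sign with peaks of at most 1000 bp (0.145), a −log10 q of at least 1.3 (2.31), at least 10 reads (4.29) and lists of equal length (1.97). It was more negative with any overlap of 1 bp (-4.44) and where the peak had to cover 50% of the copy (-3.37). The sign turned too with loci of at most 2000 bp (3.76) and with that limit and at least 10 reads (4.45), both chosen after the data were seen, and the difference ran from -2.50 to 1.49 over the lists left out, the positive value being without replicate 2. The difference between copies inside another gene and copies in no other gene, -0.659 points, turned to 0.110 with peaks of at most 1000 bp, 0.244 with the q limit and 0.480 with at least 10 reads. It was more negative with lists of equal length (-0.938), any overlap of 1 bp (-1.70) and a peak over 50% of the copy (-1.89). The exact sign-flip p was 0.25, the smallest possible, with lists of equal length and with 50% covered. Over the lists left out the difference ran from -1.75 to 0.144, positive without replicate 1. Copies in all 3 lists, 67, fell to 9 with the q limit and 2 where the peak had to cover 50% of the copy, and copies in both remaining lists were 86 to 150. The cause of these changes was not tested. Host genes split by strand were not run, since the annotation used has no strand. No paired analysis was possible because the Ctrl samples were not analysed here.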
